A study of Arabidopsis thaliana with 6 samples.

Results

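The 6 genes described here are the MYB transcription factors that regulate glucosinolate synthesis in Arabidopsis thaliana. They were chosen by gene identifier out of 27371 genes in the deposited table, and all 6 were found there. The choice was made with earlier results of these data known. MYB28 (AT5G61420), MYB29 (AT5G07690) and MYB76 (AT5G07700) regulate the aliphatic compounds. MYB34 (AT5G60890), MYB51 (AT1G18570) and MYB122 (AT1G74080) regulate the indole compounds. In the gene order of the reference annotation MYB29 and MYB76 are direct neighbours, while none of the other 4 lies beside another of the set.

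Transcripts were measured by paired-end RNA sequencing of whole seedlings of ahl13-1, a SALK insertion line in AHL13, which encodes an AT-hook protein of the nucleus. All seedlings were 14 days old and carried this mutation, controls included. In 1 group (3 libraries) a suspension of Pst hrcC (optical density 0.002) was sprayed on the seedlings for 24 hours. Pst hrcC is a Pseudomonas syringae pv. tomato strain whose type III secretion system does not work, used to present microbial patterns to the plant without delivering effectors. The other group (3 libraries) were controls, and the labels do not say what those seedlings received. By its title the series concerns a function of AHL13 in pattern-triggered immunity. Wild-type seedlings are not analysed here, so every difference below lies between treatments within the mutant.

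Glucosinolates are sulfur-containing defence compounds of the cabbage family, which release toxic products when tissue is damaged. The aliphatic ones are made from methionine after its side chain is elongated, and the indole ones from tryptophan. The MYB factors bind the promoters of the biosynthetic genes and act together with the jasmonate-responsive factors MYC2, MYC3 and MYC4. MYB28 is regarded as the main aliphatic regulator, with MYB29 and MYB76 in accessory roles. MYB34 and MYB51 carry most of the indole branch, MYB34 mainly in roots and MYB51 mainly in shoots, and MYB122 has a minor part.

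Values are FPKM, in which fragment numbers are corrected for transcript length and for the size of the library, so levels can be set side by side between genes. Differences were taken after log2(FPKM + 1), and the added 1 makes fold changes of weakly expressed genes too small. AHL13 (AT4G17950) itself was read at 1.98, 2.43 and 2.08 FPKM after Pst hrcC, against 2.32, 2.17 and 2.47 FPKM in controls, and without a wild type this does not check the mutation. Depth relative to control replicate 1, taken from whole-number steps among the lowest values, was 4.56, 3.80 and 0.81 in Pst hrcC replicates 1, 2 and 3, and 4.88 and 2.85 in control replicates 2 and 3. The labels do not say whether replicates are separate plantings, so the p-values speak only for the spread among these 6 libraries. The replicate 1 pair stood apart in several of the genes below, and results are therefore also given without it.

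MYB76 was the regulator with the widest gap between the groups on the log2 scale. In FPKM the gaps between the group means of MYB34, MYB28 and MYB29 were all wider than that of MYB76. MYB76 was read at 2.40, 3.19 and 7.05 FPKM after Pst hrcC, against 0.124, 0.0253 and 0.174 FPKM in controls. Every treated library lay far above every control library, and MYB76 was close to the lowest readable level in the controls. The group means were 4.21 ± 2.49 FPKM after Pst hrcC and 0.108 ± 0.076 FPKM in controls (SD, n = 3 each). The log2 fold change was 2.13 ± 0.32 (SE, 95% interval 1.38 to 2.89), with an adjusted p of 0.0778 in limma over all 16923 genes tested. MYB76 therefore did not pass the threshold of an adjusted p under 0.05. An exact permutation test gave p = 0.1 (two-sided), the smallest that 3 against 3 libraries can give.

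The low control values of MYB76 rest on very few fragments. Multiplied by relative depth, its control values lay at 1, 1 and 4 steps of a common size, and its treated values at about 88, 98 and 46 steps. Steps rise with depth, so Pst hrcC replicate 3 had the fewest treated steps but the highest treated FPKM. If a step is 1 fragment, the treated libraries held 36.8 times as much MYB76 per depth as the controls, with a 95% exact interval from 16.7 to 101 that covers counting error only. MYB76 reached the mean of 1 FPKM needed for testing only through its treated libraries. Its fold change depends on the pseudocount, and was 4.30 with 0.1 in place of 1 (limma adjusted p = 0.0456). It also passed without Pst hrcC replicate 1 (limma adjusted p = 0.0292), but not without both replicate 1 libraries (2.40 ± 0.34 SE, limma adjusted p = 0.0573).

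MYB29, the neighbouring gene, was also higher in every treated library. It was read at 9.01, 5.16 and 8.34 FPKM after Pst hrcC, against 3.51, 1.49 and 1.61 FPKM in controls. The lowest treated value exceeded the highest control value, which came from replicate 1. The means were 7.50 ± 2.06 FPKM after Pst hrcC and 2.20 ± 1.14 FPKM in controls (SD, n = 3 each). The log2 fold change was 1.43 ± 0.29 (SE, 95% interval 0.73 to 2.13; limma adjusted p = 0.196), and the exact permutation p was 0.1 (two-sided). With the replicate number as a block the adjusted p of both MYB29 and MYB76 in limma was 0.0630. MYB29 and MYB76 are related genes, and how the authors' counting divided reads between such copies is not given in the sources used here.

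MYB28 had the highest control level of the 6 genes and a small log2 difference between the groups. It was read at 23.8, 24.0 and 30.8 FPKM after Pst hrcC, against 16.8, 23.4 and 20.1 FPKM in controls. The groups did not overlap, but Pst hrcC replicates 1 and 2 lay within 1 FPKM of control replicate 2. The log2 fold change was 0.37 with an SE of 0.18 (adjusted p of 0.870 in limma), and its 95% interval from -0.07 to 0.80 included 0. Its exact permutation p was 0.1 (two-sided), as for MYB76 and MYB29. The smaller log2 difference of MYB28 than of MYB76 or MYB29 was not itself tested.

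**Figure D1:**
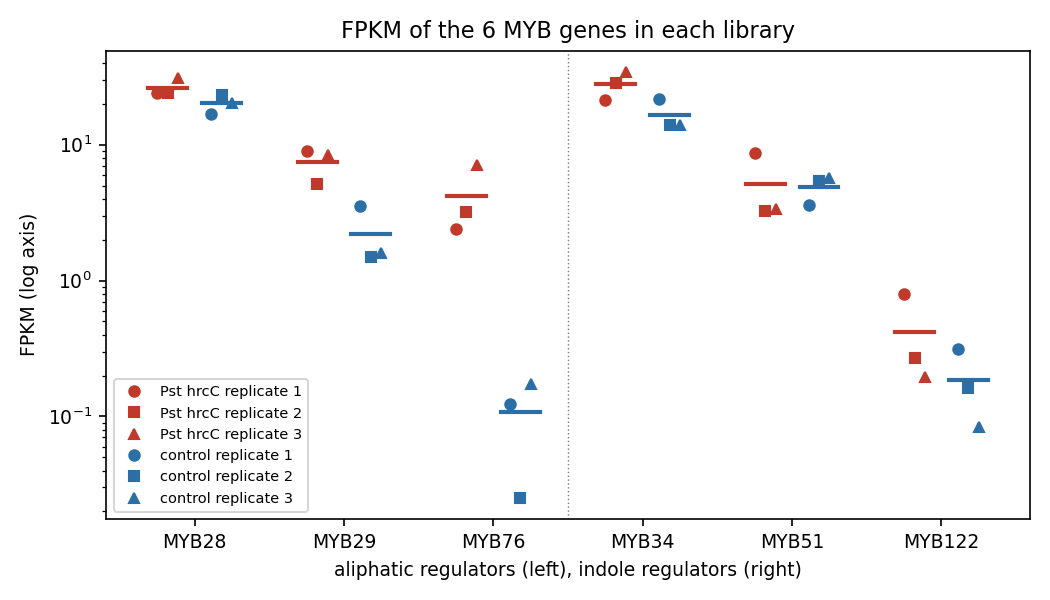
FPKM (log axis) of the 6 MYB genes in each library, with Pst hrcC left of control; marker shapes are replicate numbers and horizontal lines are group means. The aliphatic genes MYB28, MYB29 and MYB76 do not overlap between groups, with MYB76 at 2.40 to 7.05 FPKM after Pst hrcC and 0.0253 to 0.174 FPKM in controls, while MYB34, MYB51 and MYB122 overlap.

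Among the indole regulators MYB34 was the most abundant. It was read at 21.3, 28.5 and 34.2 FPKM after Pst hrcC, against 21.6, 13.8 and 14.1 FPKM in controls. The 2 replicate 1 libraries were nearly equal, whereas in replicates 2 and 3 the treated value was well above the control value. The means were 28.0 ± 6.47 FPKM after Pst hrcC and 16.5 ± 4.43 FPKM in controls (SD, n = 3 each). The log2 fold change was 0.73 ± 0.24 (SE, 95% interval 0.15 to 1.32; limma adjusted p = 0.561; exact permutation p = 0.2). Without both replicate 1 libraries it was 1.11 ± 0.15 (SE, limma adjusted p = 0.0549).

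MYB51 showed no common direction. It was read at 8.70, 3.28 and 3.35 FPKM after Pst hrcC, against 3.58, 5.36 and 5.66 FPKM in controls. The treated library of replicate 1 held the highest value of all 6, and the treated libraries of replicates 2 and 3 held the lowest. The log2 difference between same-numbered libraries was 1.08 in replicate 1, -0.57 in replicate 2 and -0.61 in replicate 3. The log2 fold change was -0.03 ± 0.35 (SE, 95% interval -0.86 to 0.79; limma adjusted p = 1.00), and the exact permutation p was 0.8 (two-sided). Without both replicate 1 libraries MYB51 was at -0.59 ± 0.14 (SE, limma adjusted p = 0.199).

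MYB122 was the least abundant gene after Pst hrcC and was too low to be tested, with a mean of 0.303 FPKM over the 6 libraries. It was read at 0.795, 0.270 and 0.194 FPKM after Pst hrcC, against 0.315, 0.162 and 0.0831 FPKM in controls. The groups overlapped, and the highest value was again that of Pst hrcC replicate 1. Multiplied by relative depth, these values lay at 46, 13 and 2 steps after Pst hrcC, against 4, 10 and 3 in controls. Steps rise with depth, and most steps after treatment came from the deeper Pst hrcC replicate 1, which was also highest in FPKM. With no filter on low values the log2 fold change of MYB122 was 0.24 with an SE of 0.17 (adjusted p of 1.00 in limma).

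In limma none of the 5 tested regulators was called changed, where 0.29% of all tested genes were. At an unadjusted p under 0.05 MYB76, MYB29 and MYB34 were higher, where 5.18% of all tested genes were higher and 1.63% lower. The treated values lay above all control values in 3 of the 5 tested regulators, all of them aliphatic, where this held for 7.66% of all tested genes. The 3 aliphatic regulators were also higher in each same-numbered pair, as was the untested indole regulator MYB122 (0.45, 0.13 and 0.14 in log2 units), and this held for 21.2% of all tested genes. MYB76 counts among the aliphatic genes in both statements although it could only be tested because its treated values were high. The median log2 fold change over all tested genes was 0.04. Since the regulators were chosen with earlier results of these data known, the shares above are descriptive and give no independent support.

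**Figure D2:**
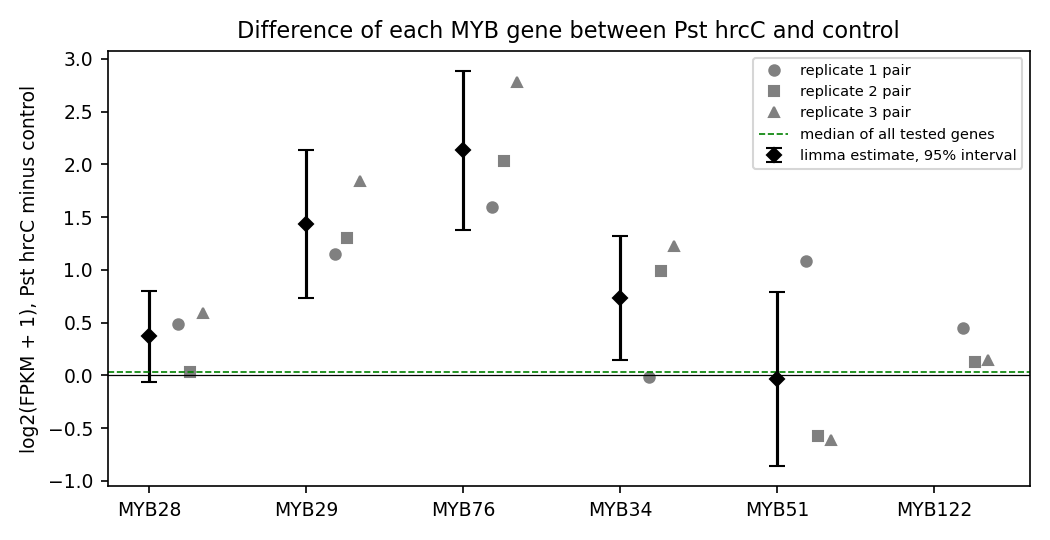
Difference between Pst hrcC and control in log2(FPKM + 1) for each MYB gene; diamonds with bars are limma estimates with 95% intervals and grey markers are the same-numbered pairs. The intervals of MYB29 (0.73 to 2.13), MYB76 (1.38 to 2.89) and MYB34 (0.15 to 1.32) lie above 0, those of MYB28 and MYB51 include it, and MYB122 was not tested.

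The order of the levels differed between the groups. After Pst hrcC it was MYB34, MYB28, MYB29, MYB51, MYB76 and MYB122, and the ranges of MYB34 and MYB28 overlapped, as did those of MYB29 and MYB51 and those of MYB51 and MYB76. In controls it was MYB28, MYB34, MYB51, MYB29, MYB122 and MYB76, and only the ranges of MYB28 and MYB34 and of MYB122 and MYB76 overlapped between neighbours. MYB76 was thus the lowest of the 6 in controls. After treatment only its value in Pst hrcC replicate 3 (7.05 FPKM) lay within the ranges of MYB29 and MYB51. Its values in replicates 1 and 2 (2.40 and 3.19 FPKM) lay below both ranges.

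The make-up of the aliphatic set differed between the groups, with a smaller share of MYB28 after treatment in every library. MYB28 held 67.6%, 74.2% and 66.6% of the summed aliphatic FPKM after Pst hrcC, against 82.2%, 93.9% and 91.9% in controls. MYB76 held 6.81%, 9.86% and 15.3% after Pst hrcC, against 0.609%, 0.102% and 0.794% in controls. MYB29 held 19.9% ± 5.05 after Pst hrcC and 10.2% ± 6.12 in controls (SD, n = 3 each), and its shares overlapped between the groups. In the indole set MYB34 held 69.2%, 88.9% and 90.6% after Pst hrcC, against 84.7%, 71.5% and 71.0% in controls. The lowest of the treated values was that of replicate 1, where MYB51 took 28.2%.

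**Figure D3:**
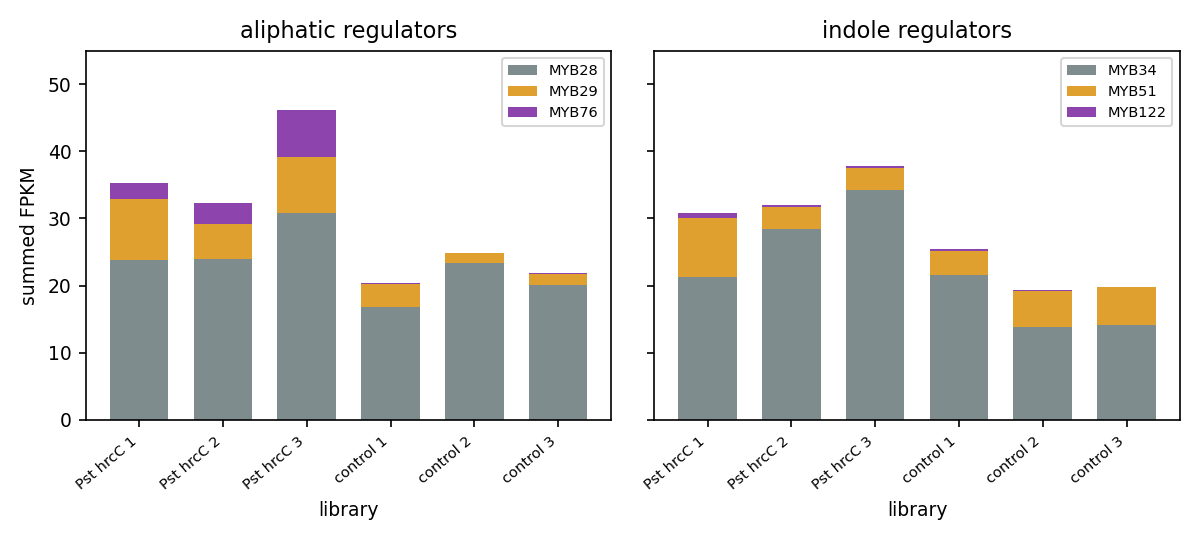
Summed FPKM of the aliphatic (left) and indole (right) regulators in each library, with the Pst hrcC libraries first; colours are the single genes. MYB76 is visible in the Pst hrcC bars (6.81% to 15.3% of the aliphatic sum) and makes up less than 1% of the control bars.

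Set side by side, the aliphatic genes had the wider gap on the log scale, and the summed FPKM of both sets was higher after Pst hrcC. The aliphatic sum averaged 37.9 ± 7.29 FPKM after Pst hrcC and 22.4 ± 2.29 FPKM in controls, and the indole sum 33.5 ± 3.72 FPKM after Pst hrcC and 21.6 ± 3.43 FPKM in controls (SD, n = 3 each). The mean log2(FPKM + 1) of the aliphatic genes minus that of the indole genes was 0.37, 0.67 and 1.24 in the Pst hrcC libraries, against -0.20, -0.27 and -0.25 in the control libraries. All treated libraries were above all controls, with group means of 0.76 ± 0.44 and -0.24 ± 0.04 (SD, n = 3 each), and the difference was 1.00. This score gives MYB76 the same weight as MYB28, so it moves with the pseudocount and was 1.67 with 0.1 and 0.42 with 5. The ratio of the aliphatic to the indole FPKM sum was 1.14, 1.01 and 1.22 after Pst hrcC, against 0.800, 1.29 and 1.11 in controls, and these overlapped. No p-value is given for either score, since the genes were chosen with results of these data known.

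Like MYB51 and MYB122, a few indole modification genes had their highest value in Pst hrcC replicate 1, but most genes of the indole list did not. Of the 14 indole core and modification genes that library was the highest for 3 (21.4%), where it was the highest for 18.5% of all tested genes. It was the lowest treated library for 8 of the 14 (57.1%), where this held for 42.3% of all tested genes. CYP81F2, a cytochrome P450 that hydroxylates indole glucosinolates in defence, and the methyltransferase IGMT2 are 2 of those 3 and were chosen after their values were seen. CYP81F2 was read at 17.9, 3.11 and 2.26 FPKM after Pst hrcC, against 4.53, 2.41 and 2.41 FPKM in controls. IGMT2 was read at 12.4, 1.70 and 2.02 FPKM after Pst hrcC, against 1.54, 1.52 and 1.86 FPKM in controls. In IGMT2 the control of replicate 1 did not stand apart from the other controls. IGMT1, also named with its values known, had its lowest treated value in replicate 1, at 29.3, 31.2 and 52.6 FPKM after Pst hrcC, against 10.4, 13.8 and 17.6 FPKM in controls. IGMT2 has close copies, and reads may have been divided unevenly among them.

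**Figure D4:**
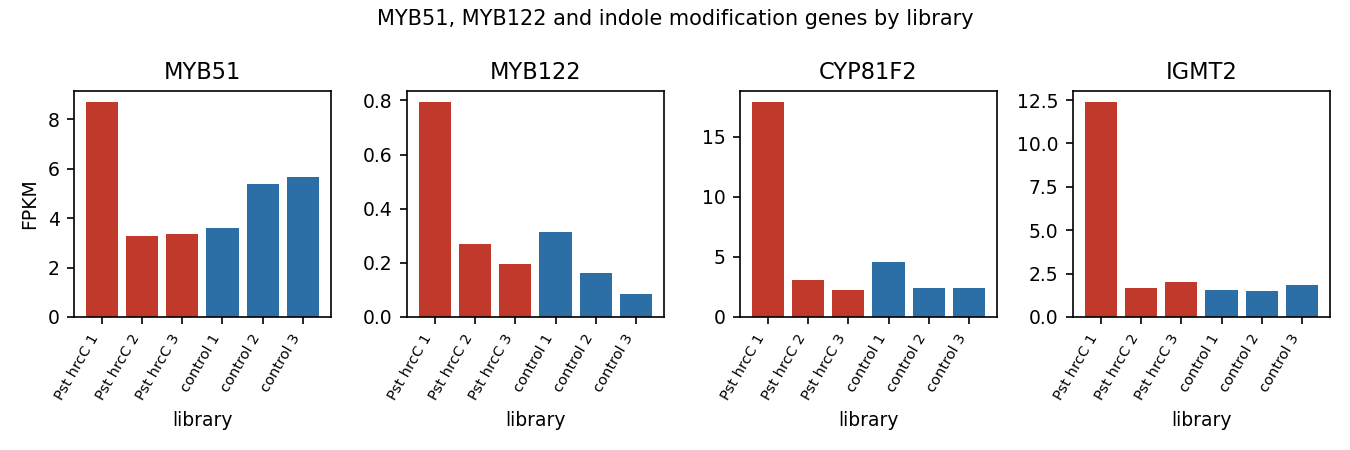
FPKM of MYB51, MYB122, CYP81F2 and IGMT2 in each library, each panel on its own scale, with Pst hrcC bars first. The last 2 genes were chosen after their values were seen; in all 4 panels Pst hrcC replicate 1 is the highest bar, at 8.70, 0.795, 17.9 and 12.4 FPKM.

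The aliphatic biosynthetic genes were higher after Pst hrcC in most cases, but none passed over all genes in limma. All pathway lists were chosen with earlier results of these data known, so their counts beside the shares of all genes are descriptive. Of 10 methionine chain elongation genes, all tested, none was called, and 9 were higher at an unadjusted p under 0.05 (5.18% of all tested genes were), with a list median log2 fold change of 1.77. BCAT4, the aminotransferase that opens chain elongation, was at 23.4, 23.8 and 34.5 FPKM after Pst hrcC, against 6.76, 2.57 and 2.26 FPKM in controls (limma adjusted p = 0.0548). BAT5, a transporter of the elongated keto acids, averaged 15.9 ± 8.47 FPKM after Pst hrcC and 2.67 ± 0.90 FPKM in controls (SD, n = 3 each; limma adjusted p = 0.109). IPMI-SSU3, a small subunit of the isomerase of that cycle, was higher by a log2 value of 2.17 ± 0.43 (SE, limma adjusted p = 0.187).

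Control replicate 1 had the highest chain elongation level of the controls. The summed FPKM of this list was 294, 220.5 and 402.5 after Pst hrcC, against 156, 65.6 and 64.4 in controls. MYB29 and MYB34 also had their highest control value in that library. The groups did not overlap in this sum.

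Of 15 aliphatic core and side chain genes in the table, 14 were tested and none was called, while 12 were higher at an unadjusted p under 0.05, against 5.18% of all tested genes (list median 1.52). GSTF11, a glutathione transferase, averaged 23.0 ± 11.4 FPKM after Pst hrcC and 3.45 ± 0.66 FPKM in controls (SD, n = 3 each; limma adjusted p = 0.0604). SOT18, a sulfotransferase of the last core step, was at 57.8, 65.1 and 95.9 FPKM after Pst hrcC, against 26.0, 25.0 and 25.0 FPKM in controls (limma adjusted p = 0.0695). FMOGS-OX1, an S-oxygenase of the side chain, averaged 3.78 ± 1.43 FPKM after Pst hrcC and 0.564 ± 0.497 FPKM in controls (SD, n = 3 each; limma adjusted p = 0.133). FMOGS-OX1 and FMOGS-OX2, the latter named with its values known (a mean of 0.878 FPKM in controls), count among the 12. Both reached the mean of 1 FPKM needed for testing only through their treated libraries. AOP2 of this list was not analysed here.

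Indole genes also leaned higher, although by less at the median. Of 14 indole core and modification genes, all tested, none was called and 9 were higher at an unadjusted p under 0.05, against 5.18% of all tested genes (list median 1.10); with the replicate block 1 rose, the methyltransferase IGMT1, named here with its value known (limma adjusted p = 0.0473). UGT74B1, the glucosyltransferase, averaged 60.4 ± 15.4 FPKM after Pst hrcC and 23.1 ± 1.18 FPKM in controls (SD, n = 3 each; limma adjusted p = 0.0806). CYP83B1, which oxidises the indole aldoxime, was at 136, 144 and 201 FPKM after Pst hrcC, against 73.3, 74.9 and 56.5 FPKM in controls (limma adjusted p = 0.133). GSTF9, a glutathione transferase, was higher by a log2 value of 1.11 ± 0.22 (SE, limma adjusted p = 0.187). The medians of the aliphatic and indole lists were not tested against each other.

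Of the listed pathway genes, those that passed belonged to steps that both branches share and to tryptophan supply, by a narrow margin. Their adjusted p in limma was 0.0461 to 0.0498, while that of BCAT4 was 0.0548. The medians of these 2 lists, 1.48 and 1.08, were below 1.77 for chain elongation and 1.52 for the aliphatic core, where no gene was called. Of 4 shared genes 2 rose, APK2 and SUR1, and of 8 tryptophan genes 2 rose, PAT1 and ASA1; none fell in either list, and 0.284% of all tested genes were called higher. APK2, a kinase that makes the activated sulfate used by the sulfotransferases, was at 39.8, 34.5 and 52.2 FPKM after Pst hrcC, against 11.7, 7.81 and 5.70 FPKM in controls. Its log2 fold change of 2.23 ± 0.27 passed (SE; adjusted p in limma 0.0461, with the replicate number as a block 0.0649). SUR1, the C-S lyase, had a log2 fold change of 1.33 ± 0.17 (SE; adjusted p in limma 0.0498, blocked 0.0623).

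GGP1, a peptidase acting just before SUR1, was higher by a log2 value of 1.63 ± 0.37 (SE, limma adjusted p = 0.249). ASA1, a subunit of anthranilate synthase and a known target of MYB34, was at 15.6, 20.6 and 20.8 FPKM after Pst hrcC, against 5.13, 6.77 and 6.95 FPKM in controls. Its log2 fold change of 1.46 ± 0.18 passed (SE; adjusted p in limma 0.0461, blocked 0.0307). PAT1, the next enzyme, had a log2 fold change of 1.33 ± 0.16 (SE; adjusted p in limma 0.0461, blocked 0.0623). ASB1, the other synthase subunit, differed by 1.24 ± 0.18 (SE, limma adjusted p = 0.0618).

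These 4 calls were lost in most fits that left out 1 library, which also hold fewer libraries. The log2 fold change in these fits was 2.01 to 2.47 for APK2 and 1.34 to 1.59 for ASA1. It was 1.24 to 1.44 for PAT1 and 1.20 to 1.43 for SUR1. Without 1 control or treated library at a time, APK2 passed in 2 of 6 fits (without replicate 1 of either group), ASA1 and PAT1 in 1 (without Pst hrcC replicate 1) and SUR1 in 0. The adjusted p of limma then ran up to 0.237 for APK2, 0.219 for ASA1, 0.243 for PAT1 and 0.297 for SUR1. Without both replicate 1 libraries it was 0.0248 for APK2, 0.0177 for ASA1, 0.0230 for PAT1 and 0.0529 for SUR1.

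Among partners of the MYB factors and other regulators of the pathway, MYC2 had the widest log2 difference. Of 13 such genes 11 were tested, none was called, 1 was higher at an unadjusted p under 0.05 (5.18% of all tested genes were), and the list median was 0.11. MYC2 was at 37.6, 103 and 109 FPKM after Pst hrcC, against 11.8, 14.9 and 12.8 FPKM in controls (limma adjusted p = 0.109). The treated library of replicate 1 had the lowest of the treated values, and all 3 were above the controls. MYC3 averaged 34.2 ± 4.34 FPKM after Pst hrcC and 26.8 ± 1.68 FPKM in controls (SD, n = 3 each; limma adjusted p = 0.808). WRKY33, a factor of camalexin induction, was at 16.4, 7.47 and 7.06 FPKM after Pst hrcC, against 4.42, 5.17 and 7.02 FPKM in controls (limma adjusted p = 0.813). Of the glucosinolate transporters GTR1 and GTR2 none was called, at log2 differences of 0.64 ± 0.19 and 0.29 ± 0.18 (SE, limma adjusted p = 0.483 and 0.990).

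**Figure D5:**
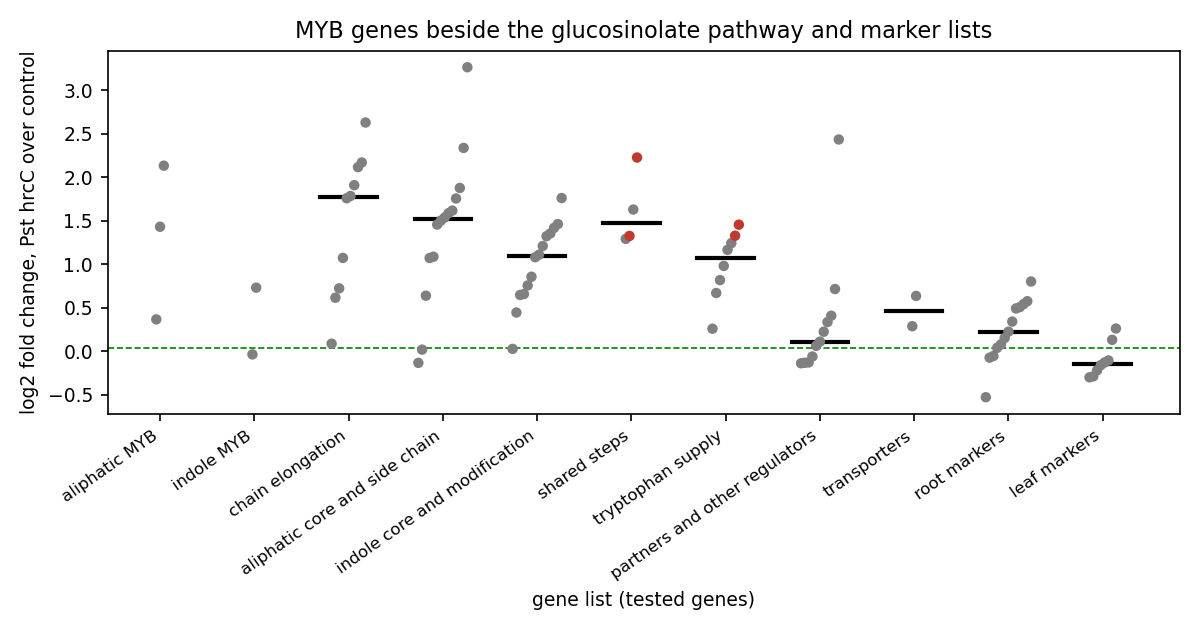
Log2 fold change (Pst hrcC over control) of each tested gene by list; red points passed an adjusted p under 0.05 in limma, black lines are list medians (none is drawn for the MYB genes) and the dashed green line is the median of all tested genes, 0.04. The biosynthetic lists have medians from 1.08 to 1.77, while the partner list is at 0.11 and the root and leaf markers are at 0.23 and -0.14.

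Among other MYB genes no call was made. Of 119 genes with MYB and a number as symbol or synonym in the reference table, the 6 regulators left aside, 53 were tested and none was called. At an unadjusted p under 0.05, 6 were higher and 4 lower, where 5.18% of all tested genes were higher and 1.63% lower, and their median log2 fold change was -0.02. The 3 with the smallest p were MYB15 at 1.18 ± 0.26, MYB63 at 0.61 ± 0.16 and MYBR1 at 0.82 ± 0.22 in log2 units (SE, limma adjusted p = 0.244, 0.379 and 0.380). MYB15, a defence-related regulator of lignin genes, was at 2.76, 2.16 and 0.899 FPKM after Pst hrcC, against 0.183, 0.206 and 0.353 FPKM in controls. Like MYB76, MYB15 reached the mean of 1 FPKM needed for testing only through its treated libraries. The same held for MYB47, another of the 6 higher genes, named with its values known (a mean of 0.558 FPKM in controls).

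The genes with the most similar pattern over the 6 libraries were found by Pearson's r on the log2(FPKM + 1) scale among 16918 other tested genes. The 6 libraries fall into the 2 treatment groups, so r reads the treatment difference along with the rest. For MYB76 the highest r was that of SOT18, 0.998, followed by AT3G62580 at 0.997 and AT3G51450 at 0.993. For MYB29 it was LAP1 at 0.994, then SAUR9 at 0.994 and AT5G54970 at 0.992. For MYB28 it was AT1G20300 at 0.995, then PID2 and LBD13, both at 0.991. For MYB34 it was SS3 at 0.994, then AT3G62010 and OCT6, both at 0.989. For MYB51 it was AT5G57210 at 0.996, then AT4G08940 at 0.983 and EIF4B1 at 0.979, and for MYB122 it was CYP706A1 at 0.994, then AT4G10500 at 0.990 and AT2G19730 at 0.983.

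MYB51 was the only one of the 6 with negative medians against the biosynthetic lists. The median r of MYB29 was 0.962 with the chain elongation genes and 0.950 with the aliphatic core genes. MYB76 had a median r of 0.871 with the first, 0.876 with the second and 0.913 with the indole genes, and MYB34 had 0.929, 0.916 and 0.875. MYB28 was at 0.529, 0.532 and 0.725, and MYB122 at 0.525, 0.485 and 0.336. MYB51 was at -0.228, -0.241 and -0.285, indole genes included. Over all tested genes the median r ranged from -0.076 for MYB122 to 0.214 for MYB28. These values describe 6 libraries that differ in treatment, replicate number and depth, and carry no test.

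Whole seedlings hold roots and shoots, and in such bulk samples fewer cells of a type cannot be told apart from less RNA per cell. Of 19 root markers 13 were tested and none was called (0.29% of all tested genes were), and the list median was 0.23. Of the 13 tested, 2 lay wholly above the controls, against 7.66% of all tested genes. RHD6, 1 of these 2, averaged 0.704 FPKM in controls and reached the filter only through its treated libraries. The summed FPKM of the 19 was 101, 68.0 and 116 after Pst hrcC, against 110, 78.1 and 83.6 in controls, so the groups overlapped. IRT1, an iron transporter, made up 28.3%, 8.50% and 36.5% of this sum after Pst hrcC, against 40.8%, 18.6% and 42.6% in controls. Without IRT1 the sum was 72.6, 62.2 and 73.7 FPKM after Pst hrcC, against 65.1, 63.5 and 48.0 FPKM in controls. The median log2 difference of root markers was 0.20, 0.01 and 0.49 in the pairs of replicates 1, 2 and 3. In the pair of replicate 3 5 root hair genes of the list, PRP3, LRX1, COBL9, RHD6 and EXPA7, named with their values known, differed by more, between 1.27 for EXPA7 and 2.55 for PRP3. In the pair of replicate 1 these 5 lay between -0.05 and 0.36, and in that of replicate 2 between -0.56 and 0.06. RSL4, another root hair gene of the list, was too low to be tested and did not share this pattern. It differed by 0.49, -0.22 and 0.49 in the pairs of replicates 1, 2 and 3. MYB76 differed by 1.60, 2.03 and 2.78 in the pairs of replicates 1, 2 and 3. The chain elongation medians of the same pairs were 0.83, 1.63 and 2.74. Of 8 leaf markers, all tested, none was called, and the list median was -0.14. Summed leaf markers ranged from 30390 to 37260 FPKM after Pst hrcC and from 36560 to 40990 FPKM in controls. No marker of either list was at 0 in all libraries, and the part of tissue composition in the MYB differences was not tested.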

How the data were processed

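The authors deposited 1 table of FPKM values with 1 column per library, and the values were used as deposited. The submitters' processing notes name TAIR10 as the build, and Cufflinks 2.2.1, TopHat2 2.1.1 and FastQC as tools; annotation, strand and settings are not stated there. Groups and replicate numbers came from sample titles. Names came from lists written for this work and a RefSeq table of TAIR10.1 (26703 of 27371 identifiers found, 97.6%), of which no coordinates are given.

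Of all genes, 16923 averaged 1 FPKM or more and were tested (10448 were not) in limma 3.58.1 (R 4.3.3) after log2(FPKM + 1) (variance trend, treatment as the only term, two-sided, Benjamini-Hochberg adjustment over all genes tested). On simulated data with 16923 genes the test recovered 53.3% of 2-fold and 84.0% of 4-fold changes, with independent draws that do not give the power in real libraries.

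FPKM holds no counts. Between libraries, the ratios of the lowest values (chosen with TAIR10.1 transcript lengths) cluster at whole-number steps, from which relative depth was read. Steps of MYB76 and MYB122 lay within 0.026 of whole numbers below 20 steps; whole reads were not recovered for all genes, and no count model was used.

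The members and lists were chosen with earlier results of these data known. Named genes are the 6 members, the 3 smallest p of each list and the 3 highest Pearson r for each member; a gene outside this rule is marked as chosen with its values known. After subtracting group means, the libraries numbered 1 correlated at 0.431 over genes, those numbered 2 at 0.170 and those numbered 3 at 0.130. All exceed 0.1, and same-numbered libraries were therefore also compared as pairs and as a block, although the labels state no pairing. The main fit and the permutation test left the replicate number out. Pst hrcC replicate 2 correlated more with control replicate 3 (0.210) than with its own number, so only replicate 1 stood clearly apart. Alternatives covered pseudocount, filter, scaling, weights, variance trend, block and left-out libraries.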

Additional observations from a re-analysis of the deposited data

How the results depend on the processing

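The number of changed genes over the whole table was 49 and depended on the setting. It was 17 with a pseudocount of 5, 2 with no filter on low values, 115 after rescaling over nuclear genes, 407 with array weights and 200 without both replicate 1 libraries. Leaving out 1 library gave 2 to 185. MYB76 (2.13) passed with a pseudocount of 0.1 (4.30), after rescaling over nuclear genes (2.15), with array weights (2.22) and without Pst hrcC replicate 1, with 1.77 to 2.39 over the 6 left-out libraries. Under nuclear rescaling the SE of MYB76 was 0.49, against 0.32 in the main fit, and that of MYB28 was 0.77, against 0.18. MYB29 and MYB34 passed with array weights (1.50 and 0.96). MYB28, MYB29, MYB76 and MYB34 were positive under every alternative that gave a value. MYB51 was -0.42 to 0.17 over the left-out libraries, and its sign turned without control replicates 2 or 3 or Pst hrcC replicates 2 or 3 (0.03, 0.07, 0.17 and 0.15). MYB122 had a value only with no filter. The aliphatic minus indole difference (1.00) was 1.67 and 0.42 with pseudocounts of 0.1 and 5, and positive in all 12 alternatives run. Array weights called 407 of 16923 genes over the whole table. Among them were 7 of 10 chain elongation, 8 of 14 aliphatic core and 8 of 14 indole genes. Of the further lists, 3 of 4 shared, 4 of 8 tryptophan and 1 of 11 partner genes were called. Without both replicate 1 libraries 200 of 16847 genes were called. In the same order the lists then held 2, 3, 2, 2, 3 and 1 calls. Left-out libraries gave 0 to 1 for chain elongation, 0 to 2 for aliphatic core, 0 to 2 for indole, 0 to 1 for partners, 0 to 1 for shared steps and 0 to 4 for tryptophan genes. The aliphatic core count was 1 after nuclear rescaling. With the replicate block 1 indole gene, 0 shared genes and 1 tryptophan gene passed, and the block changed no call of a MYB gene. The 2 shared genes became 0 with a pseudocount of 5, no filter, median-of-ratios scaling, nuclear rescaling or quantile normalization, and 1 without a variance trend. The 2 tryptophan genes became 0 with a pseudocount of 5, no filter or nuclear rescaling, and 1 under quantile normalization. The cause was not tested. Depth limits MYB76 in controls (1 to 4 steps) and MYB122 in all libraries but Pst hrcC replicate 1 (2 to 13 steps).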
